A study of Mus musculus with 6 samples.

Results

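The 32 genes described here encode the folding and quality control machinery of the endoplasmic reticulum (ER) and the sensors of the unfolded protein response (UPR). They were chosen by name from a list of ER chaperones, disulfide isomerases, UPR sensors, ER-associated degradation genes and translocon genes. The choice was made with earlier results of these data known. All 32 symbols matched an ID in the count table of 27179 gene IDs, and 31 had enough reads to be tested. Levels were measured by RNA sequencing of osteoblasts, the bone-forming cells, from the calvaria (skull cap) of C57Bl/6J pups aged 5 days. The knockout group (3 libraries) is labelled Cdc73/Hrpt2 KO, with Flox in its titles, and came from conditional knockout mice. Below, knockout and wildtype mean the libraries so labelled. The wildtype group (3 libraries) carries the label Wildtype. Cells of both groups were released with collagenase and sorted alike by a GFP signal that depends on Osteocalcin-Cre, which is active in mature osteoblasts, so both groups carry this driver. Whether a library came from 1 pup, a litter or a pool is not stated in the sources used here, and p-values measure the spread between these libraries, which may be technical.

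An osteoblast secretes large amounts of collagen, which enters the ER through the Sec61 translocon and is folded there with the help of chaperones and disulfide isomerases before export. When unfolded protein accumulates, the sensors IRE1 (Ern1), PERK (Eif2ak3) and ATF6 are released from the chaperone BiP (Hspa5) and set off the UPR, which raises chaperone and degradation genes and slows translation. The targeted gene, Cdc73, codes for parafibromin, which acts with RNA polymerase II as part of the Paf1 complex. The comparison asks how transcript levels of this machinery differ between sorted cells of both genotypes.

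Library totals were 14837272 to 16380767 counts in the knockout group and 13591925 to 20993962 in the wildtype group. Gene IDs with any count numbered 17068 to 18024 in knockout libraries and 17947, 14608 and 15712 in wildtype 1, 2 and 3. The part of this gap in the differences below was not tested. Cdc73 itself did not separate the groups, at 13.98, 14.7 and 14.4 CPM in knockout 1, 2 and 3 and 20.5, 12.8 and 21.7 CPM in wildtype 1, 2 and 3 (CPM are counts scaled to a common depth with TMM factors). Its log2 fold change was -0.36 ± 0.22 (edgeR adjusted p = 0.428), so this gene does not check the labels. Counts per gene do not show deleted exons apart, and the cause of the overlap was not tested. Osteoblast markers were abundant in all 6 libraries, with a summed level of 237484 to 351273 CPM in knockout and 281635 to 307331 CPM in wildtype libraries over 12 genes, none at 0. Nearly all of that sum was Col1a1 and Col1a2. Of the 12 markers 9 had negative log2 fold changes (median -0.18). At an unadjusted p of 0.05, 1 was higher (Dmp1, 0.42) and 3 were lower (Sp7, -0.62, Ifitm5, -0.59, and Pth1r, -0.51). The shares of all genes at that level were 8.26% (higher) and 6.35% (lower). The edgeR test over all genes passed 0 of these markers. Markers of other cells were also present and mostly higher in the knockout libraries. The 12 chondrocyte markers, all positive, summed to 11901 to 25322 CPM in knockout and 3495 to 9685 CPM in wildtype libraries, and the 12 macrophage markers, all positive, to 167 to 392 CPM in knockout and 98.9 to 143 CPM in wildtype libraries. The 10 endothelial markers, all positive, summed to 189 to 282 CPM in knockout and 97.0 to 184 CPM in wildtype libraries. The 8 neutrophil markers, all positive, summed to 56.6 to 185 CPM in knockout and 20.9 to 54.5 CPM in wildtype libraries. By unadjusted p, 12 chondrocyte, 11 macrophage, 7 endothelial and 5 neutrophil markers were higher and 0 lower, against the same shares of all genes. The groups overlapped in the sums of erythroid markers (6 of 6 positive, 49.9 to 401 CPM in knockout and 17.5 to 115 CPM in wildtype). Osteoclast markers summed to 529 to 642 CPM in knockout and 414 to 599 CPM in wildtype libraries, an overlap carried by Ctsk (355 ± 62.2 CPM in knockout and 367 ± 108 CPM in wildtype, SD, n = 3 each). The other 5 osteoclast markers tested were higher in every knockout library, against 10.6% of all genes. At an unadjusted p of 0.05, 4 of them were higher, against 8.26% of all genes. The median over all 6 tested was 1.26. Muscle markers (2 of 6 tested positive) overlapped too, at 8.23 to 38.04 CPM in knockout and 7.76 to 50.4 CPM in wildtype libraries. Plasma cells are rich in ER proteins, so their markers are given too, at sums far below those of the chondrocyte markers. Of 10 B and plasma cell genes 4 were tested, all positive (median 1.29), and the list summed to 59.0 to 66.9 CPM in knockout and 47.6 to 57.0 CPM in wildtype libraries. Most of that sum was Sdc1 (48.0 ± 3.52 CPM in knockout and 47.9 ± 7.43 CPM in wildtype, SD, n = 3 each), the defining genes Jchain and Mzb1 were below 1 CPM in every library, and Tnfrsf17 was at 0 in all 6. Other genes of the list were higher in knockout, among them Prdm1 at 6.88 ± 1.68 CPM in knockout and 2.36 ± 2.18 CPM in wildtype (log2 fold change 1.51, without overlap) and Irf4 at 3.58 ± 2.04 CPM in knockout and 0.837 ± 0.943 CPM in wildtype (2.03). Cd79a, left untested, averaged 1.01 CPM in knockout and 0.167 CPM in wildtype libraries. In bulk RNA, fewer cells of a type and less RNA per cell cannot be told apart, and the part of these other cells in the differences below was not tested.

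Many ER chaperone genes carry the ER stress response element (ERSE), CCAAT followed by 9 bases and CCACG, which in mammals is bound by ATF6 together with the factor NF-Y. The sequences below show where it stands in front of the chaperones described here, since UPR induction of such genes is known to act through this element. RefSeq promoter windows (GRCm38.p6, 250 bases before to 50 after the start site) were available for 26 of the 32 genes and searched on both strands for exact matches. ERSE stood in 9 of the 26 (34.6%), against 0.137% of 27025 genes with such a window. ERSE-II, ATTGG followed by 1 base and CCACG, stood in 2 (7.69%, against 0.0444% of genes), and the UPR element core TGACGTGG in 1 (3.85%, against 0.714%). No window of a member held more than 1 kind of these motifs. The windows of Hspa5, Hsp90b1, Calr and Canx all held ERSE, Hsp90b1 with 2 copies. In the lines below the motif letters are in capitals, and each sequence is printed on the strand on which the motif reads CCAAT to CCACG (or ATTGG to CCACG).
Hspa5 ERSE (chr2:34772013-34772055, + strand): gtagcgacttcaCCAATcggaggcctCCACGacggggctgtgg
Hsp90b1 ERSE (chr10:86705626-86705668, - strand): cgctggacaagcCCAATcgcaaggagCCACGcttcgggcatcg
Hsp90b1 ERSE (chr10:86705521-86705563, + strand): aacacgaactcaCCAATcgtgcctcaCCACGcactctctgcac
Calr ERSE (chr8:84847063-84847105, + strand): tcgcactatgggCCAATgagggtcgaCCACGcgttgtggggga
Canx ERSE (chr11:50325788-50325830, - strand): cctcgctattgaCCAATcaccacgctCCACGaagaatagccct
Pdia6 ERSE (chr12:17266479-17266521, + strand): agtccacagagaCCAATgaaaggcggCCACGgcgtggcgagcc
Dnajb11 ERSE-II (chr16:22857840-22857874, + strand): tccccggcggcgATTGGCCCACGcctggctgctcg
Dnajc3 ERSE (chr14:118937815-118937857, + strand): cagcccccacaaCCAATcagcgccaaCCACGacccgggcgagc
Creld2 ERSE (chr15:88819508-88819550, - strand): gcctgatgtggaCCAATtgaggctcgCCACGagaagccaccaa
Herpud1 ERSE-II (chr8:94386365-94386399, + strand): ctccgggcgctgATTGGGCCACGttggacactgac
Syvn1 ERSE (chr19:6046520-6046562, + strand): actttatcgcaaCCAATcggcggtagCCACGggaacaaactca
Derl3 ERSE (chr10:75893230-75893272, - strand): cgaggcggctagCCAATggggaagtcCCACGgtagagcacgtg
The first base of the Hspa5 element lay 65 bases before the start site, that of Syvn1 44 bases before, and that of Dnajb11 7 bases after it. The only UPR element core was in a window of Txndc5 (chr13:38528033-38528064, - strand), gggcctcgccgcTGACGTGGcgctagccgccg, where the core is in capitals. The complete Hspa5 window, chr2:34771840-34772139 on the + strand, shows the element ahead of a TATA sequence (tatataa), with the matched run in capitals.
Hspa5 promoter window: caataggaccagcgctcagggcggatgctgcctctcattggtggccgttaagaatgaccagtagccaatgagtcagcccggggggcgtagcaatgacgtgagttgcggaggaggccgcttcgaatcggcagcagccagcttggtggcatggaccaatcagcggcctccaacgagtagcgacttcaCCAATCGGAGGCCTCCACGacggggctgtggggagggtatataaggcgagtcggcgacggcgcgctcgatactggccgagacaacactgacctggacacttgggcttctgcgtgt
Neither Ern1, Xbp1 nor Eif2ak3 held an exact match in this window, and Atf6, Hyou1, Manf, Derl1, Sec61a1 and Ostc were not searched. A match describes these letters and is not a shown binding site. Of 10 tested members with ERSE or ERSE-II 9 had a positive log2 fold change (median 0.29), and of 15 tested members without them 9 did (median 0.23). Among the 15 other tested genes with either motif, 7 were positive and the median was -0.000857, where all 10380 tested genes with a window had -0.01.

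Log2 fold changes of knockout over wildtype were positive for 4 of 5 chaperones, 3 of 4 disulfide isomerases and 4 of 4 co-chaperones, and for 0 of 4 translocon genes, but no member passed the test over all genes. Of the 31 tested members, 21 had a positive and 10 a negative log2 fold change of knockout over wildtype, with a median of 0.23 and a range of -0.54 to 0.77. The median of all 13505 genes tested was -0.01. With edgeR and Benjamini-Hochberg adjusted p-values, 0 members and 0 of all genes (0%) passed 0.05. By an unadjusted p of 0.05, 4 members were higher (Hspa5, Dnajb9, Calr and Atf6), against 8.26% of all genes. At the same level, 1 member was lower (Ostc), against 6.35% of all genes. In 9 members all knockout libraries exceeded all wildtype libraries, against 10.6% of all genes. In 0 members all of them were lower, against 9.81% of all genes. DESeq2 called 1 member, Hspa5, as higher (DESeq2 adjusted p = 0.0229, and 0.0229 to 0.947 over all alternatives), where it called 1.78% of all genes as higher. Without wildtype 1, edgeR called 2.13% of all genes as higher and 0 members. The median over the members was 0.05 without wildtype 3 and 0.02 with library size in place of TMM scaling, a choice that moved the median of all genes to -0.21.

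**Figure D1:**
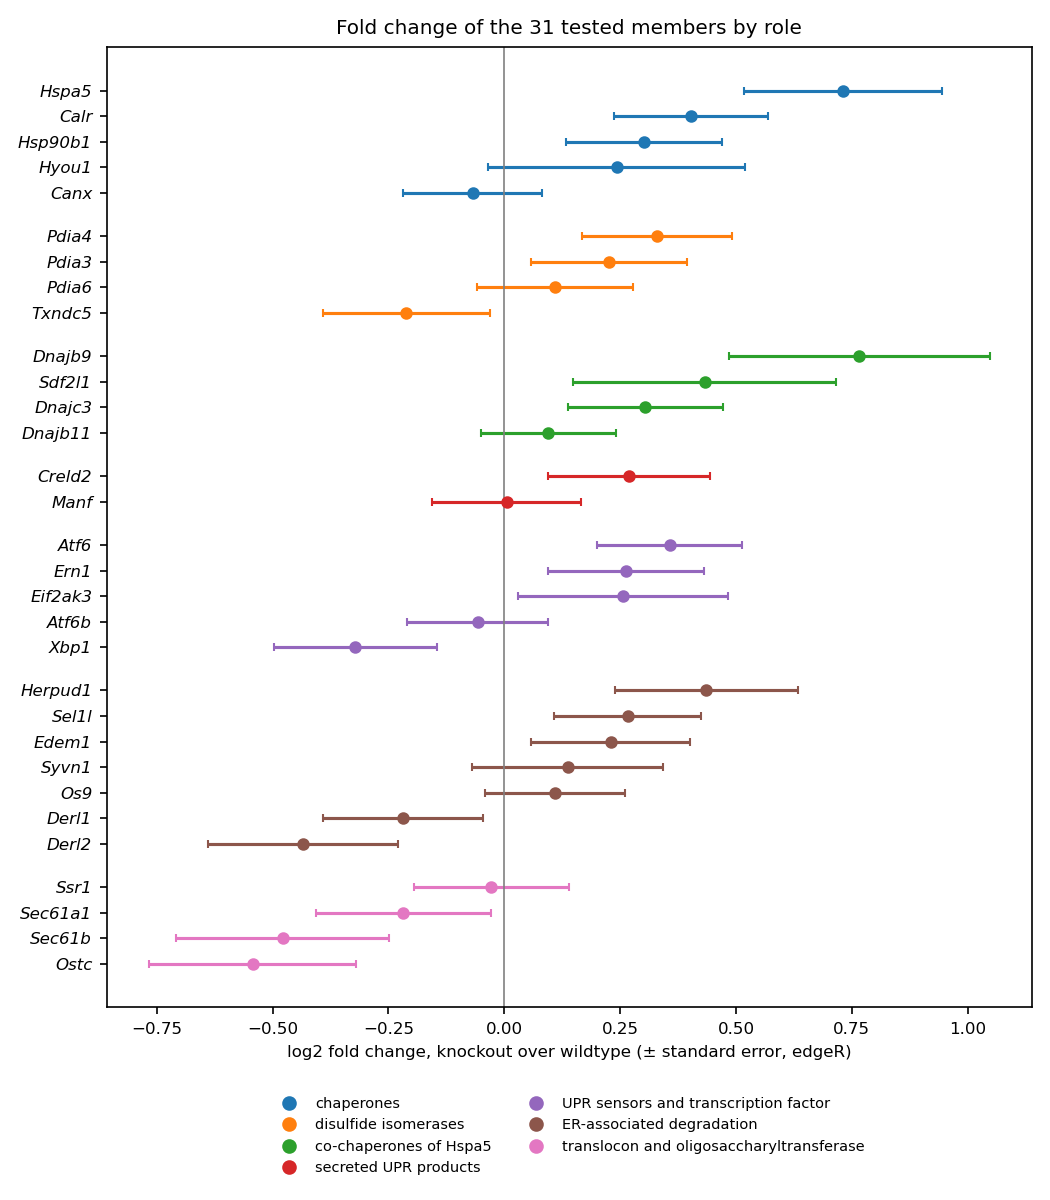
Log2 fold change of knockout over wildtype (x axis) with its standard error from edgeR for the 31 tested members (y axis), coloured by role, n = 3 libraries per group. Hspa5 (0.73) and Dnajb9 (0.77) lie farthest to the right and all 4 translocon genes lie left of 0, with Ostc at -0.54, yet no gene passed the test over all genes.

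The chaperones that bind unfolded chains made up the role with the largest summed level. Together the 5 genes measured 2487, 2331 and 2295 CPM in knockout 1, 2 and 3, against 1832, 1888 and 1407 CPM in wildtype 1, 2 and 3. The sums did not overlap, and the ratio of knockout to wildtype means was 1.39. Most of the gap came from Hspa5 (gene ID 14828, chromosome 2, 34772090 to 34776529 in mm10), which encodes BiP, the ER member of the HSP70 family. Hspa5 measured 1297, 1169 and 1087 CPM in the knockout libraries and 798, 819 and 524 CPM in the wildtype libraries. The groups did not overlap, and wildtype 3 stood lowest. It averaged 1184 ± 106 CPM in knockout and 714 ± 164 CPM in wildtype libraries (SD over 3 libraries a group). Its log2 fold change was 0.73 ± 0.21, or 1.66-fold (edgeR adjusted p = 0.277). Leaving out 1 library at a time gave log2 fold changes of 0.54 (without wildtype 3) to 0.83 (without wildtype 2), and the gene did not pass in any of these edgeR fits (edgeR adjusted p of 0.0860 to 0.828). Against wildtype 1 alone it was 0.56.

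Calr encodes calreticulin, which holds newly made glycoproteins in the ER through their sugars and binds calcium. It measured 376, 339 and 354 CPM in the knockout libraries and 257, 308 and 244 CPM in the wildtype libraries, again with no overlap. The log2 fold change was 0.40 ± 0.17 (edgeR adjusted p = 0.325). Canx encodes calnexin, the membrane-bound relative of calreticulin. It measured 209.8, 216 and 196 CPM in knockout and 223, 223 and 207 CPM in wildtype libraries, a log2 fold change of -0.07 ± 0.15 with overlapping groups. The soluble and the membrane-bound lectin chaperone thus had fold changes of opposite sign, that of Canx smaller than its standard error. The difference between both genes was not tested. Hsp90b1 encodes the ER member of the HSP90 family. It measured 522, 523 and 587 CPM in knockout libraries against 487, 444 and 393 CPM in wildtype libraries (0.30 ± 0.17, edgeR adjusted p = 0.400), without overlap. Hyou1, a large relative of HSP70 that exchanges the nucleotide of BiP, measured 82.4, 83.7 and 69.5 CPM in knockout and 67.9, 93.3 and 38.2 CPM in wildtype libraries (0.24 ± 0.28). Its wildtype libraries spanned the whole knockout range, and its log2 fold change was -0.05 without wildtype 3.

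**Figure D2:**
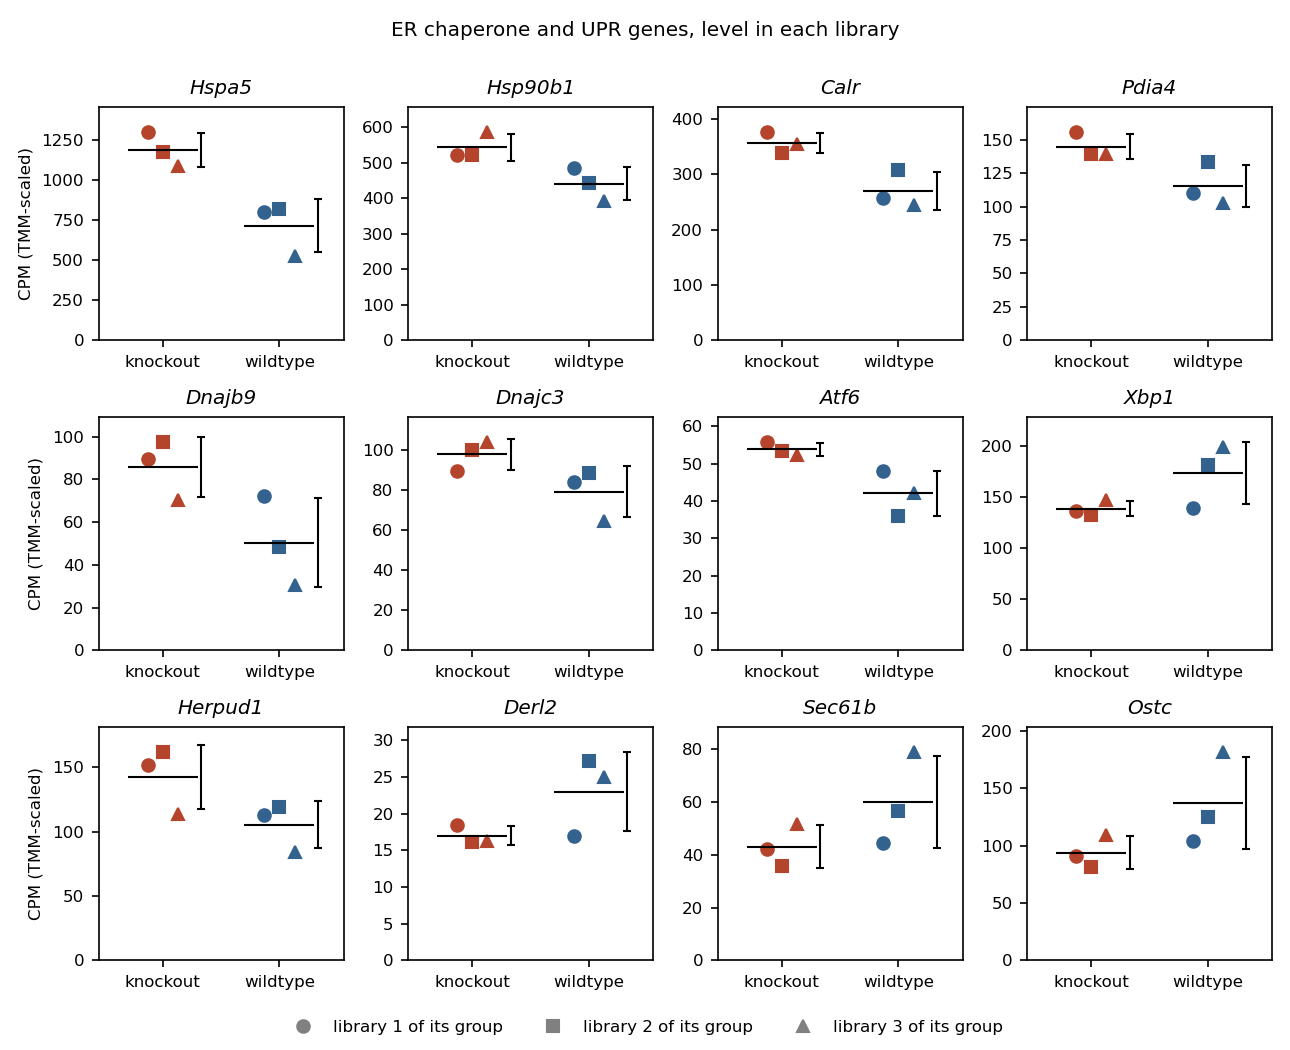
TMM-scaled CPM (y axis, from 0) of 12 members in each knockout (red) and wildtype (blue) library, with group mean (line) and SD (bar), n = 3 per group. Hspa5, Hsp90b1, Calr, Pdia4, Dnajc3 and Atf6 show no overlap between groups. Wildtype 1 lies within the knockout range for Dnajb9, Xbp1, Derl2, Sec61b and Ostc, as does wildtype 2 for Herpud1.

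Among the disulfide isomerases, which form and rearrange disulfide bonds in secreted proteins, 3 of 4 had a positive log2 fold change. Pdia4 measured 156, 139 and 139 CPM in knockout libraries and 109.9, 133 and 103 CPM in wildtype libraries (0.33 ± 0.16, edgeR adjusted p = 0.366). Pdia3, which works on glycoproteins held by calreticulin and calnexin, measured 476, 464 and 501 CPM in knockout and 414, 459 and 360.3 CPM in wildtype libraries (0.23 ± 0.17, edgeR adjusted p = 0.501). Both genes were higher in every knockout library, Pdia3 by a narrow margin over wildtype 2. Pdia6 averaged 256 ± 13.1 CPM in knockout and 237 ± 34.6 CPM in wildtype libraries (0.11 ± 0.17). Txndc5, an isomerase with repeated thioredoxin domains, averaged 382 ± 19.6 CPM in knockout and 443 ± 77.4 CPM in wildtype libraries, a negative log2 fold change (-0.21 ± 0.18), with wildtype 2 the highest library. The summed level of the 4 genes was 1207 to 1297 CPM in knockout and 1099 to 1397 CPM in wildtype libraries, so the sums overlapped.

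All 4 partners of BiP had a positive log2 fold change, with a median of 0.37. The J-domain proteins among them stimulate the ATPase of HSP70 chaperones. Dnajb9 (gene ID 27362, chromosome 12, 44205897 to 44210068), a J-domain protein that holds IRE1 inactive together with BiP, measured 89.8, 97.5 and 70.4 CPM in knockout libraries and 72.3, 48.4 and 30.6 CPM in wildtype libraries. Wildtype 1 stood above knockout 3, and the wildtype libraries were spread over more than the whole gap between the means. Its log2 fold change, the largest of the members, was 0.77 ± 0.28 (edgeR adjusted p = 0.302). It depended on the controls, at 1.10 without wildtype 1 (edgeR adjusted p = 0.0502), 0.50 without wildtype 3 and 0.24 against wildtype 1 alone. Dnajc3, which also inhibits PERK, measured 89.4, 100.002 and 104 CPM in knockout and 84.2, 88.5 and 64.8 CPM in wildtype libraries (0.30 ± 0.17, edgeR adjusted p = 0.397) without overlap. Dnajb11 averaged 62.5 ± 6.10 CPM in knockout and 58.5 ± 2.00 CPM in wildtype libraries (0.10 ± 0.15). Sdf2l1, which binds Dnajb11 protein, was low at 5.88 ± 1.34 CPM in knockout and 4.38 ± 0.965 CPM in wildtype libraries (0.43 ± 0.28), and both overlapped.

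The secreted UPR products did not separate the groups. Manf, a protein that leaves the cell when ER calcium falls, measured 97.1, 82.2 and 86.0 CPM in knockout libraries and 76.3, 100.2 and 87.9 CPM in wildtype libraries (0.005 ± 0.16). Creld2, a UPR-induced protein with EGF domains, measured 35.1, 32.8 and 35.3 CPM in knockout and 26.5, 34.9 and 24.2 CPM in wildtype libraries (0.27 ± 0.17, edgeR adjusted p = 0.446). For Manf the direction turned under several alternatives, including library size alone (-0.19) and the fit without wildtype 1 (-0.11).

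Of the UPR sensor genes, Atf6, Ern1 and Eif2ak3 had positive log2 fold changes and Atf6b a negative one. That of the transcription factor gene Xbp1 was negative too. Atf6 encodes a membrane-bound transcription factor that is cut in the Golgi to free its active part. Atf6 (gene ID 226641, chromosome 1, 170704457 to 170868585) measured 55.8, 53.5 and 52.3 CPM in knockout libraries and 48.0, 36.0 and 42.1 CPM in wildtype libraries, with no overlap. The log2 fold change was 0.36 ± 0.16 (edgeR adjusted p = 0.338). Its paralogue Atf6b averaged 32.1 ± 2.96 CPM in knockout and 33.4 ± 2.40 CPM in wildtype libraries (-0.06 ± 0.15). Ern1 encodes IRE1, the kinase and ribonuclease that starts the splicing of Xbp1 mRNA. It measured 22.1, 20.5 and 22.2 CPM in knockout and 20.3, 15.4 and 18.2 CPM in wildtype libraries (0.26 ± 0.17, edgeR adjusted p = 0.442), separated only by the small distance between knockout 2 (20.50 CPM) and wildtype 1 (20.33 CPM). Eif2ak3 encodes PERK, the kinase that slows translation. It measured 54.2, 66.5 and 65.2 CPM in knockout and 64.0, 57.0 and 34.5 CPM in wildtype libraries (0.26 ± 0.23). Wildtype 3 stood lowest, and the log2 fold change was 0.02 without it and -0.06 against wildtype 1 alone. Xbp1 measured 136, 133 and 147 CPM in knockout libraries and 140.0, 182 and 199.5 CPM in wildtype libraries (-0.32 ± 0.18, edgeR adjusted p = 0.394). Wildtype 1 lay within the knockout range, and wildtype 2 and 3 above it. The counts cover the whole gene, so the spliced form of Xbp1 mRNA, which encodes the active factor, was not measured.

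Genes of ER-associated degradation, which retrieves misfolded proteins for the proteasome, were mixed, with 5 of 7 tested members positive and a median of 0.14. Herpud1, a UPR-induced membrane protein of the degradation complex, measured 152, 162 and 114 CPM in knockout libraries and 113, 119 and 84.4 CPM in wildtype libraries (0.44 ± 0.20, edgeR adjusted p = 0.346). Wildtype 2 exceeded knockout 3. Sel1l, the adaptor of the ubiquitin ligase encoded by Syvn1, averaged 84.1 ± 3.01 CPM in knockout and 69.9 ± 10.2 CPM in wildtype libraries and was higher in every knockout library (0.27 ± 0.16, edgeR adjusted p = 0.416). The ligase gene Syvn1 itself (0.14 ± 0.21), the mannosidase-like Edem1 (0.23 ± 0.17) and the lectin gene Os9 (0.11 ± 0.15) overlapped between groups. The derlins, membrane proteins at the exit from the ER, had negative values. Derl2 measured 18.5, 16.1 and 16.3 CPM in knockout libraries and 16.9, 27.1 and 25.0 CPM in wildtype libraries (-0.44 ± 0.20, edgeR adjusted p = 0.354), with wildtype 1 inside the knockout range. Against wildtype 1 alone its log2 fold change was -0.01. Derl1 averaged 19.0 ± 0.929 CPM in knockout and 22.1 ± 3.44 CPM in wildtype libraries (-0.22 ± 0.17). Derl3, the derlin of professional secretory cells, was left untested, with 11, 2 and 5 counts in knockout 1, 2 and 3 and 10, 0 and 0 counts in wildtype 1, 2 and 3.

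The genes of the translocon and of the oligosaccharyltransferase, through which new chains enter the ER and receive sugars, were the only role with no positive log2 fold change among its tested members. Their median was -0.35. The 4 genes summed to 737, 718 and 932 CPM in knockout 1, 2 and 3, against 804, 999 and 1001 CPM in wildtype 1, 2 and 3, so the groups overlapped through knockout 3 and wildtype 1. Ostc (gene ID 66357, chromosome 3, 130695917 to 130709444), a subunit of the oligosaccharyltransferase, measured 91.4, 81.2 and 109 CPM in knockout libraries and 104, 125 and 182 CPM in wildtype libraries. Wildtype 1 lay below knockout 3 and wildtype 3 far above all others. The log2 fold change was -0.54 ± 0.22 (edgeR adjusted p = 0.325), -0.30 without wildtype 3 and -0.16 against wildtype 1 alone. Sec61b, a small subunit of the translocation channel, measured 42.1, 35.7 and 51.7 CPM in knockout and 44.6, 56.7 and 79.0 CPM in wildtype libraries (-0.48 ± 0.23, edgeR adjusted p = 0.360). It too had its highest value in wildtype 3, and its log2 fold change was -0.24 without that library. Sec61a1, which encodes the channel itself, averaged 463 ± 66.9 CPM in knockout and 539 ± 77.8 CPM in wildtype libraries (-0.22 ± 0.19). Ssr1, a subunit of the translocon-associated protein complex, averaged 196 ± 30.5 CPM in knockout and 199 ± 7.26 CPM in wildtype libraries (-0.03 ± 0.17), and its sign turned without knockout 1, without knockout 2 and against wildtype 1 alone. The median over the 4 genes was -0.03 against wildtype 1 alone.

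Set per kilobase of merged exon length (GENCODE M21), the members spanned more than 3 orders of magnitude in level. Hspa5 was first in both groups, at 280.1 CPM per kilobase in knockout and 168.8 in wildtype libraries, followed by Pdia3 (153 in knockout, 131 in wildtype) and Hsp90b1 (135 in knockout, 109.5 in wildtype). Txndc5 (85.1 in knockout, 98.5 in wildtype) and Calr (124 in knockout, 93.7 in wildtype) exchanged places between the groups. Their wildtype levels did not differ beyond their spread. The sensor genes were low, with Eif2ak3 at 10.3 in knockout and 8.598 in wildtype, Atf6 at 5.84 in knockout and 4.55 in wildtype, and Ern1 at 2.64 in knockout and 2.20 CPM per kilobase in wildtype. Derl3 was last, at 0.202 in knockout and 0.0731 CPM per kilobase in wildtype. The largest step in rank was that of Herpud1, at rank 8 in the knockout group (61.1) and rank 13 in the wildtype group (45.2 CPM per kilobase). Merged exon length counts every annotated exon, so genes with long alternative ends are placed too low on this scale.

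Across libraries, wildtype 3 stood apart most often. It held the lowest value of 17 of 31 tested members (54.8%), against 27.7% of all genes tested, and 4 of the 5 chaperones were lowest there. The same library was highest for 2 of the 4 translocon genes (Sec61b and Ostc) and for Xbp1 and Derl1. It was thus highest for 12.9% of tested members, against 28.5% of all genes tested. Knockout 3 was highest for 10 of 31 members, and wildtype 1 for 0, against 1372 (knockout 3) and 1081 (wildtype 1) of all 13505 genes. The knockout libraries were more alike, with a median coefficient of variation over the members of 8.48% in the knockout group and 15.6% in the wildtype group. Over all genes tested these medians were 13.0% in knockout and 23.4% in wildtype. The coefficient was larger in wildtype for 23 of 31 members (74.2%), against 78% of all genes, so the wider wildtype spread was at least as common over all genes.

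**Figure D3:**
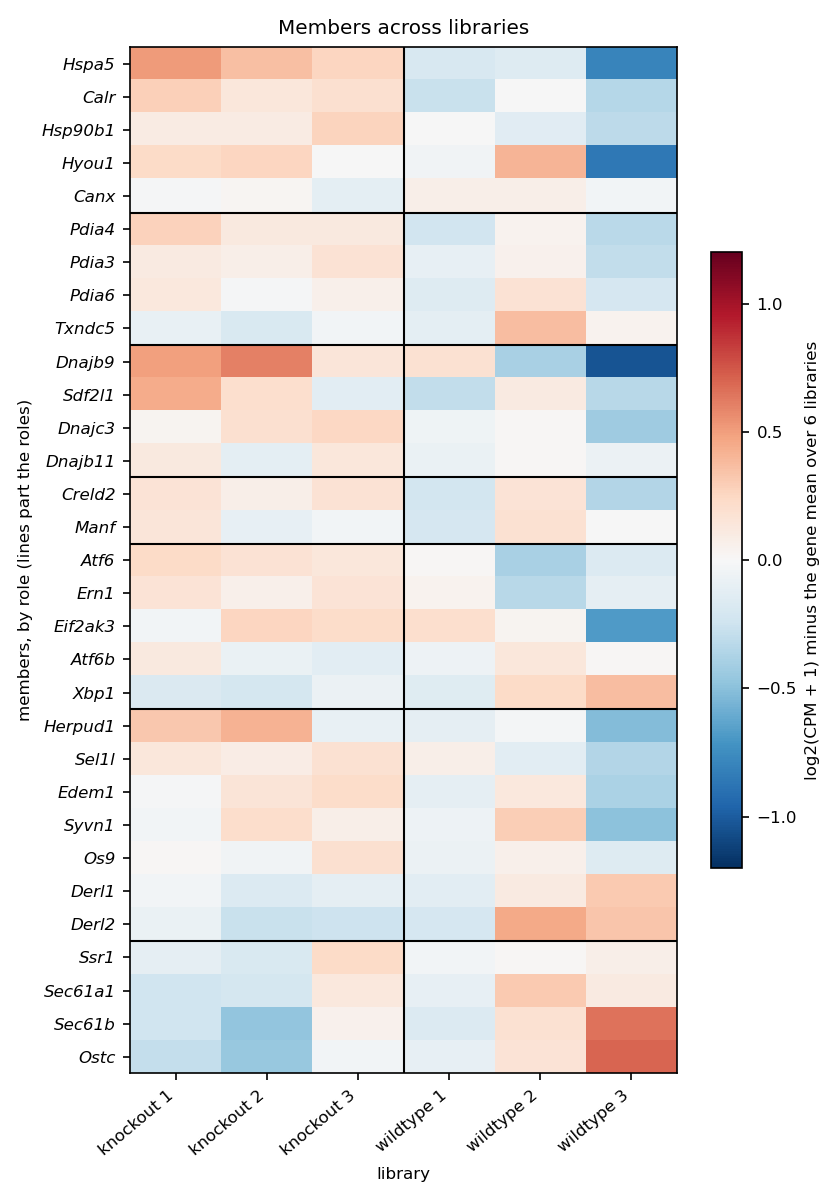
Log2(CPM + 1) of each tested member minus its mean over the 6 libraries, in 3 knockout (left) and 3 wildtype (right) columns, with rows grouped by role. Wildtype 3 is darkest blue for Hspa5, Hyou1, Dnajb9 and Eif2ak3 and red for Sec61b and Ostc, while wildtype 1 is pale in most rows.

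The PERK and ATF4 branch, which lies downstream of Eif2ak3 and of other kinases of the same initiation factor, had a median log2 fold change of 0.46, beside 0.23 for the members. This list, like the others, was chosen with earlier results of these data known, so its median only describes these libraries. Of 16 genes on this list 12 were positive. At an unadjusted p of 0.05, 6 were higher and 1 was lower, against 8.26% (higher) and 6.35% (lower) of all genes. The lower gene was Eif2b1 (-0.49 ± 0.20), and the other negative genes were Eif2s1 (-0.19 ± 0.18), Atf5 (-0.17 ± 0.18) and Asns (-0.06 ± 0.16). The list passed 0 genes over all genes tested in edgeR. Ddit3, the stress transcription factor CHOP, measured 85.1, 55.8 and 47.7 CPM in knockout libraries and 35.0, 18.5 and 13.1 CPM in wildtype libraries, without overlap. Its log2 fold change was 1.496 ± 0.35 (edgeR adjusted p = 0.273), 1.97 without wildtype 1 (edgeR adjusted p = 0.0301) and 1.51 in DESeq2 (DESeq2 adjusted p = 0.00261). Nupr1, a stress-induced chromatin protein, measured 82.7, 87.3 and 97.1 CPM in knockout and 49.97, 36.1 and 51.9 CPM in wildtype libraries (0.95 ± 0.18, edgeR adjusted p = 0.273, DESeq2 adjusted p = 0.000358). Chac1, an enzyme that breaks down glutathione, measured 26.4, 19.2 and 15.1 CPM in knockout and 7.87, 10.4 and 10.6 CPM in wildtype libraries (1.08 ± 0.24, edgeR adjusted p = 0.273, DESeq2 adjusted p = 0.0144). Atf4 itself, which is controlled chiefly by translation, measured 202, 215 and 196 CPM in knockout and 182, 199 and 197 CPM in wildtype libraries (0.09 ± 0.15), -0.11 with library size alone. Beside these values stand median log2 fold changes of 1.96 for chondrocyte and 1.13 for macrophage markers, whose part was not tested. Against wildtype 1 alone the edgeR adjusted p of Ddit3, Nupr1 and Chac1 was 0.947, the highest of their alternatives. The median of the list was 0.22 without wildtype 3, and 0.22 too against wildtype 1 alone.

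The rest of the folding and degradation machinery was centred near 0. Of 20 further ER folding genes 7 were positive (median -0.07). At an unadjusted p of 0.05, 1 was higher and 0 were lower, against 8.26% (higher) and 6.35% (lower) of all genes. Ero1a, the oxidase that recharges the disulfide isomerases, was that gene, at 20.2, 19.0 and 19.99 CPM in knockout and 13.8, 10.8 and 9.79 CPM in wildtype libraries (0.78 ± 0.18, edgeR adjusted p = 0.273, DESeq2 adjusted p = 0.0370 and 0.0409 in edgeR without wildtype 1). Serp1, a translocon-associated stress protein (-0.34 ± 0.17), and the prolyl isomerase Ppib, a partner of collagen folding (-0.46 ± 0.24), were negative. Of 20 further degradation genes 9 were positive (median -0.03). By unadjusted p 0 were higher and 1 was lower (Edem2), against the same shares of all genes. Among them were the mannosidase-like Edem2 at -0.54 ± 0.23, Edem3 at 0.42 ± 0.19 and the ligase Rnf139 at -0.30 ± 0.18. Further genes of the translocon, signal recognition particle, signal peptidase and oligosaccharyltransferase resembled the translocon members in sign. Of 29 such genes 25 were negative (median -0.17), where 6843 of all 13505 genes were. At an unadjusted p of 0.05, 0 were higher and 3 were lower, against the same shares of all genes. The 3 lower genes were Srp19 (-0.42 ± 0.16), a protein of the signal recognition particle, and the signal peptidase subunits Spcs3 (-0.36 ± 0.15) and Spcs2 (-0.38 ± 0.16). Their edgeR adjusted p was 0.312 to 0.327. They were also the 3 genes of the list that were lower in every knockout library, against 9.81% of all genes. The median of that list was 0.02 against wildtype 1 alone.

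**Figure D4:**
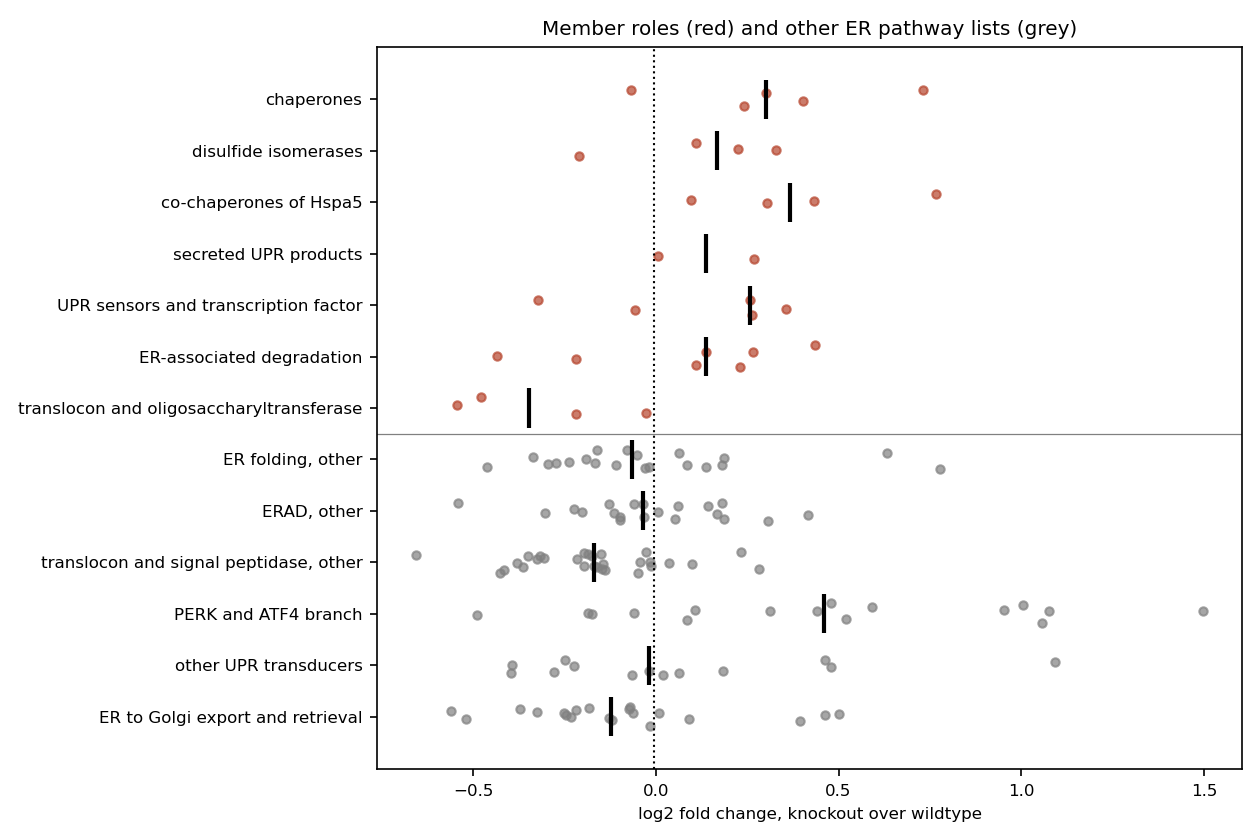
Log2 fold change of knockout over wildtype (x axis) of each tested gene, for the 7 roles of the members (red) and 6 lists of other ER pathway genes (grey). Black bars are medians and the dotted line is the median of all genes (-0.01). The PERK and ATF4 branch has the highest median (0.46) and the translocon members the lowest (-0.35). The lists were chosen with earlier results of these data known.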

How the data were processed

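RNA sequencing of GFP-sorted calvarial osteoblasts gave 6 libraries, 3 labelled knockout and 3 labelled wildtype. The deposited table holds raw read counts per gene ID, made by the authors with CASAVA 1.7, Subread and featureCounts on mm10, per the submitters' processing notes. The sources used here name no annotation or strand setting, so overlapping and antisense genes may share reads. RefSeq (GRCm38.p6, the same assembly) named 25275 of 27179 IDs and GENCODE M21 a further 18.

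Knockout was compared with wildtype in edgeR 4.0.16 (R 4.3.3) with filterByExpr, TMM factors (0.813 to 1.09) and a quasi-likelihood test (two-sided) of the 13505 genes kept, adjusted by Benjamini-Hochberg at 0.05. Levels are TMM-scaled CPM and standard errors are those of the log2 fold change. No pair of libraries agreed within sampling noise (chi-square per degree of freedom of 19.7 to 150.3). Alternatives used DESeq2 1.42.0 as test and for size factors, upper-quartile factors, library size alone, no filter, a filter of 1 CPM in 3 libraries, limma 3.58.1 voom with and without quality weights, a replicate block, each library left out, wildtype 1 as the only control (assumed to vary like the knockout libraries), and the removal of the most abundant ID that the reference tables do not name. That ID took 16.66% to 20.68% of counts in knockout and 9.67% to 11.23% in wildtype libraries. With it removed, the median log2 fold change over the members was 0.22.

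The members and lists were chosen with earlier results of these data known. Full values are given for the 2 members of smallest p in each role, for fixed sensor, chaperone and stress genes, and for up to 3 of smallest p in each other list. Protein sequence features were not analysed here.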

Additional observations from a re-analysis of the deposited data

How the results depend on the processing

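The chaperone and translocon differences depended on wildtype 1 and wildtype 3, the scaling and the tool. DESeq2 called 248 genes, no filter 24 and the edgeR fit without wildtype 1 409, against 0 in the edgeR fit on all libraries. Leaving out 1 library gave 0 to 409 genes, 0 members and 0 to 4 genes of the other ER lists. DESeq2 called 1 member (Hspa5) and 4 genes of the other lists. By unadjusted p, members higher numbered 7 in DESeq2, 1 with library size alone and 1 to 5 with 1 library left out. Members lower numbered 6 with library size alone, 3 with no filter and 0 to 4 with 1 library left out. The shares of all genes at that level were taken only in the edgeR fit on all libraries, at 8.26% (higher) and 6.35% (lower). Library size alone also moved the median of all genes down, as given above, so its member counts are not particular to the members. The median over the members was 0.020 with library size alone, 0.13 against wildtype 1 alone and 0.0491 (without wildtype 3) to 0.24 with 1 library left out. With library size alone, the medians were -0.28 for further folding, -0.24 for further degradation, -0.38 for further translocon, 0.26 for PERK and ATF4, -0.22 for other transducers and -0.34 for export genes. Against wildtype 1 alone they were 0.0924 for folding, 0.025 for translocon, 0.22 for PERK and ATF4 and 0.065 for other transducers. With 1 library left out they ran from 0.22 (without wildtype 3) to 0.54 for PERK and ATF4, -0.17 (without knockout 3) to 0.021 for other transducers and -0.23 (without knockout 3) to -0.0816 for export genes.

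The replicate numbers are not stated to pair the libraries. Deviations from the group mean correlated at 0.115, -0.074 and 0.222 between same-numbered libraries. The highest such correlation was between knockout 2 and wildtype 1 (0.347). A replicate block gave 236 called genes, 226 higher and 10 lower, with 0 members, 2 members lower by unadjusted p, and 4 genes of the other lists (Ddit3, Nupr1, Ddit4 and Bcl2l11).

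Directions turned as follows, in genes that did not pass. With library size alone these were Pdia6 (-0.090), Dnajb11 (-0.11), Manf (-0.19), Syvn1 (-0.064), Os9 (-0.10), Atf4 (-0.11) and Creb3l1 (-0.20). Against wildtype 1 alone they were Txndc5 (0.0091), Atf6b (0.026), Eif2ak3 (-0.057), Derl1 (0.0147), Ssr1 (0.0146), Ppib (0.072), Rnf139 (0.011) and Creb3l1 (-0.079). Manf was -0.024 with upper-quartile factors, -0.0045 with no filter and -0.0053 with the stricter filter, and Creb3l1 -0.0091 with upper-quartile factors and -0.059 with quality weights. With 1 library left out, Manf ran from -0.11 to 0.089, Ssr1 from -0.18 to 0.053, Creb3l1 from -0.17 to 0.099, Hyou1 from -0.047 to 0.55 and Syvn1 from -0.056 to 0.33. Of 52 named genes under 17 alternatives, 842 values kept direction and call, 12 passed newly and 30 turned, and 20 of 31 members kept their direction in all. The causes were not tested. The 3 libraries a group and counts such as those of Derl3 limit what can be detected.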

Other observations

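Genes of vesicle export from the ER and of retrieval from the Golgi gave no call. Of 20 tested genes 15 had a negative log2 fold change of knockout over wildtype (median -0.12), where 6843 of all 13505 genes did. At an unadjusted p under 0.05 there were 0 higher and 2 lower, against 8.26% (higher) and 6.35% (lower) of all genes. Kdelr1, a receptor that returns ER chaperones from the Golgi by their C-terminal signal, measured 119, 124 and 133 CPM in knockout and 153, 190.4 and 212 CPM in wildtype libraries (-0.56 ± 0.17, edgeR adjusted p = 0.278), without overlap. Sec13, a coat protein of export vesicles, measured 66.2, 59.3 and 83.4 CPM in knockout and 79.2, 98.4 and 122 CPM in wildtype libraries (-0.52 ± 0.20, edgeR adjusted p = 0.312). Mia3, which helps load collagen into such vesicles, was positive at 0.46 ± 0.22 (edgeR adjusted p = 0.355). Chondrocyte markers had a median log2 fold change of 1.96 in the same libraries, and their part was not tested.

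Creb3l1, the membrane-bound transcription factor OASIS that osteoblasts use for collagen expression in mice, measured 239, 244 and 334 CPM in knockout and 286, 265 and 254 CPM in wildtype libraries (0.02 ± 0.18). Its relative Creb3l2 measured 58.0, 57.3 and 46.9 CPM in knockout and 48.3, 37.1 and 30.9 CPM in wildtype libraries (0.48 ± 0.19, edgeR adjusted p = 0.320), with wildtype 1 above knockout 3. On the same list, 6 of 13 tested genes were positive (median -0.02), and at an unadjusted p under 0.05 there were 2 higher and 0 lower, against the same shares of all genes. Bcl2l11, which encodes the pro-apoptotic BIM, measured 52.6, 56.4 and 30.4 CPM in knockout and 32.8, 20.3 and 12.2 CPM in wildtype libraries (1.09 ± 0.35, edgeR adjusted p = 0.283, 0.0480 without wildtype 1 and 0.0240 to 0.969 over all alternatives). Bbc3, which encodes the pro-apoptotic PUMA, was higher in every knockout library (0.46 ± 0.22, edgeR adjusted p = 0.356). The pro-apoptotic genes Bax (-0.25 ± 0.17) and Bak1 (-0.39 ± 0.19) of the same list were negative, Bak1 being lower in every knockout library. On this list 1 gene was higher and 2 were lower in every knockout library, against 10.6% (higher) and 9.81% (lower) of all genes.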
